A study of Nannochloropsis oceanica with 6 samples.

Results

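The genes described here are the 215 gene models of amino acid metabolism and transport in Nannochloropsis oceanica CCMP1779, a unicellular marine alga of the stramenopiles. They carry the label of amino acid transport and metabolism in the KOG classification (eukaryotic orthologous groups) that stands beside each model in the deposited table. The class held 240 models, of which 10 were set aside by identifier or by words in their descriptions (glutamine synthetase, glutamate synthase, mitochondrial carriers, ubiquitin, glutathione, acyl-CoA). A further 15 had a mean below 1 FPKM, the highest of them 0.688 FPKM, and the lowest member kept had 1.18 FPKM. FPKM are fragments per kilobase of transcript, scaled to the mapped fragments of the library, so levels of different models can be set side by side. The 215 members are part of 9087 models at or above that mean, out of 10641 in the table.

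Messenger RNA was sequenced from 3 groups of 2 libraries each, all of the same strain. The first group received 5 min of blue light at 20 µmol s−1 m−2, the second 5 min of red light at the same intensity, and the third stayed in the dark. What all groups share is the history before and after: cycles of 12 h light and 12 h dark at 22 °C with 30 µmol s−1 m−2 in the light, a move to darkness at zeitgeber time 12 h, 36 h of darkness, and 15 min of darkness after the pulse before harvest. The dark group is thus an extended night and not a growing culture in the light. Whether the 2 replicates of a group were separate cultures is not said in the labels, and the p-values therefore cover the spread of these libraries alone, which may be technical. A lower value can stand for less RNA per cell or for fewer cells that hold the transcript, and bulk libraries cannot tell these apart.

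Algae make all protein amino acids from central metabolites. Aromatic amino acids come from the shikimate pathway, the aspartate family gives lysine, threonine and methionine, and 3-phosphoglycerate gives serine and glycine. Breakdown removes the amino group and feeds the carbon skeleton to respiration. Leucine, valine and isoleucine lose the amino group to branched-chain aminotransferases. Lysine is broken down through saccharopine, and tyrosine through homogentisate. Plants are known to use the breakdown of branched-chain amino acids and lysine for respiration in prolonged darkness, when sugar is scarce.

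By their descriptions, 92 members were placed in synthesis, 34 in breakdown, 20 in transport and 21 among peptidases. The remaining 48 only partly fit the class label. They comprise 12 aminotransferases whose substrate the description does not name, 6 sugar phosphate translocators, 5 prolyl hydroxylases, 5 ABC-type ATPases without a named membrane domain, 3 phosphoribosyl pyrophosphate synthetases and 17 others. Another model overlapped 75 of the 215 members on its scaffold, and 53 of these had a partner on the opposite strand. Whether the authors counted reads by strand is not known here, so values of overlapping members are uncertain, and so are those of close paralogs that could share reads.

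The FPKM of a library summed to between 624861 and 662229 in blue, 588092 and 615972 in red, and 767193 and 767747 in dark libraries. These sums matter for direction, because deposited TPM rescales every library to the same sum. Across all tested models the median log2 change was 0.05 for blue against dark and 0.04 for red against dark on FPKM, 0.28 and 0.37 on TPM, and −0.22 and −0.12 after centring each library on its median. Fragments were not given, so those behind 1 FPKM were estimated from ratios of very low FPKM values to dark replicate 1. Each estimate rested on only 34 to 38 models. By it, 1 FPKM stood for more fragments in the pulsed libraries than in the dark ones. Relative to dark replicate 1 there were 1.66 and 1.20 times as many in blue, 1.69 and 1.33 in red and 1.09 in dark replicate 2. The median absolute log2 difference between replicates over the members was 0.16 in blue, 0.10 in red and 0.06 in dark libraries.

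A share of the summed FPKM sets every library to the same sum, as TPM does, and so carries that choice of scale. All members together held 2.64% and 2.73% of the total in red and 2.61% and 2.60% in dark libraries. On FPKM itself they summed to 15514 and 16791 in red and 20052 and 19986 in dark libraries. The order of red and dark thus turned with the scale. Sums by role on FPKM are not given here. Breakdown members took 0.596% and 0.584% of the total in blue, 0.896% and 0.902% in red, and 1.16% and 1.14% in dark libraries. Synthesis members took 1.07% and 1.14% in blue, 0.970% and 1.02% in red, and 0.853% and 0.859% in dark libraries. By these shares, the groups do not overlap in either role. Breakdown was lowest in blue and highest in dark libraries with red between them, and synthesis ran the other way, so that breakdown exceeded synthesis in dark libraries and lay below it in blue and red ones. Transport members held 0.0881% and 0.0887% in blue, 0.0943% and 0.0932% in red, and 0.0561% and 0.0573% in dark libraries. The breakdown order did not rest on its most abundant member alone. Without it the shares were 0.545% and 0.536% in blue, 0.718% and 0.729% in red, and 0.892% and 0.871% in dark libraries. Carboxyl transferase 611034 (1259 and 1216 FPKM) and cysteine desulfurase 527986 (1083 and 1052 FPKM) also weighed heavily in dark libraries. By their FPKM and the library sums, leaving both out as well makes the breakdown shares of red and dark libraries overlap. It also puts breakdown below synthesis in dark libraries, while blue stays lowest in breakdown. The order of red and dark, and the excess of breakdown over synthesis in dark libraries, therefore rest on a few abundant members.

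**Figure D1:**
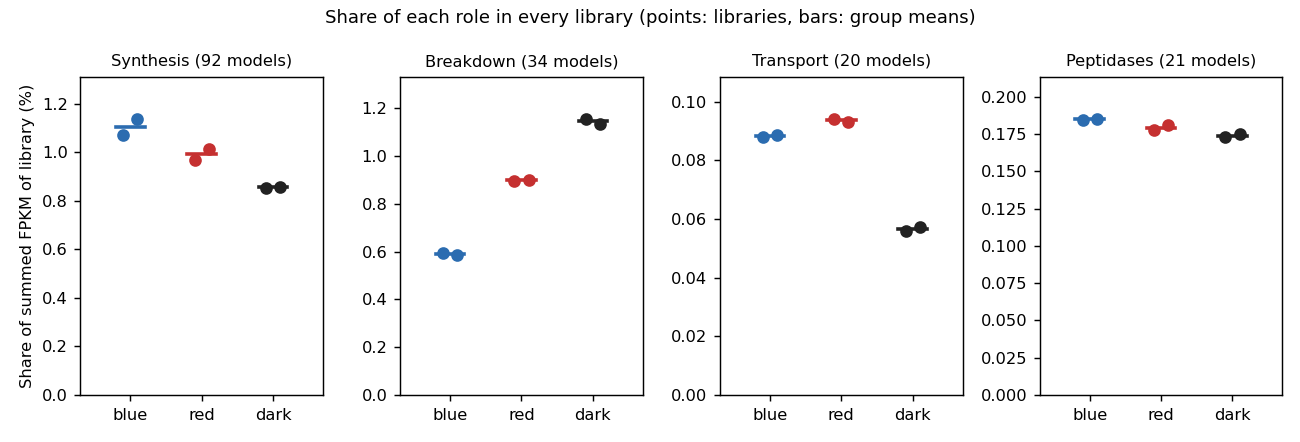
Share of the summed FPKM of a library (percent, axes from 0) held by synthesis, breakdown, transport and peptidase members; points are the 2 libraries of each group and bars their mean. Breakdown lies at 0.584% to 0.596% in blue and 1.14% to 1.16% in dark libraries, with red at 0.896% and 0.902% between them, while synthesis runs the other way.

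The first comparison asked which members differed 15 min after a blue pulse. Of the 215 members, 96 rose and 74 fell at an adjusted p under 0.05, where 39.9% of all tested models rose and 36.2% fell, so that the members' 44.7% and 34.4% stood near the background. The roles did not share this balance. In synthesis 52 of 92 members rose and 21 fell (median log2 change 0.33), whereas breakdown rose in 6 of 34 and fell in 19 (median −0.51). Transporters rose in 9 of 20 cases and fell in 4 (median 0.22), and peptidases rose in 7 of 21 and fell in 11 (median −0.24). The direction of breakdown was the same on every scale, with 9 rising and 18 falling on TPM, 8 and 20 after quantile normalization and 6 and 25 after median centring. For synthesis the figures were 62 and 18 on TPM, 49 and 23 after quantile normalization and 38 and 32 after median centring. All members together were 119 and 60 on TPM, 92 and 78 after quantile normalization and 77 and 101 after median centring, so their overall balance followed the scale. The background moved with it: of all tested models 49.8% rose and 27.0% fell on TPM, 34.4% and 39.5% after quantile normalization and 29.1% and 47.3% after median centring. Synthesis, with 67.4% and 19.6%, 53.3% and 25.0%, and 41.3% and 34.8% on these 3 scales, lay above the share that rose and below the share that fell on each. These shares are also the background of the counts by pathway given below on each scale. Without the members that overlap another model, 41 of 64 synthesis members rose and 13 fell, and 4 of 21 breakdown members rose and 12 fell.

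**Figure D2:**
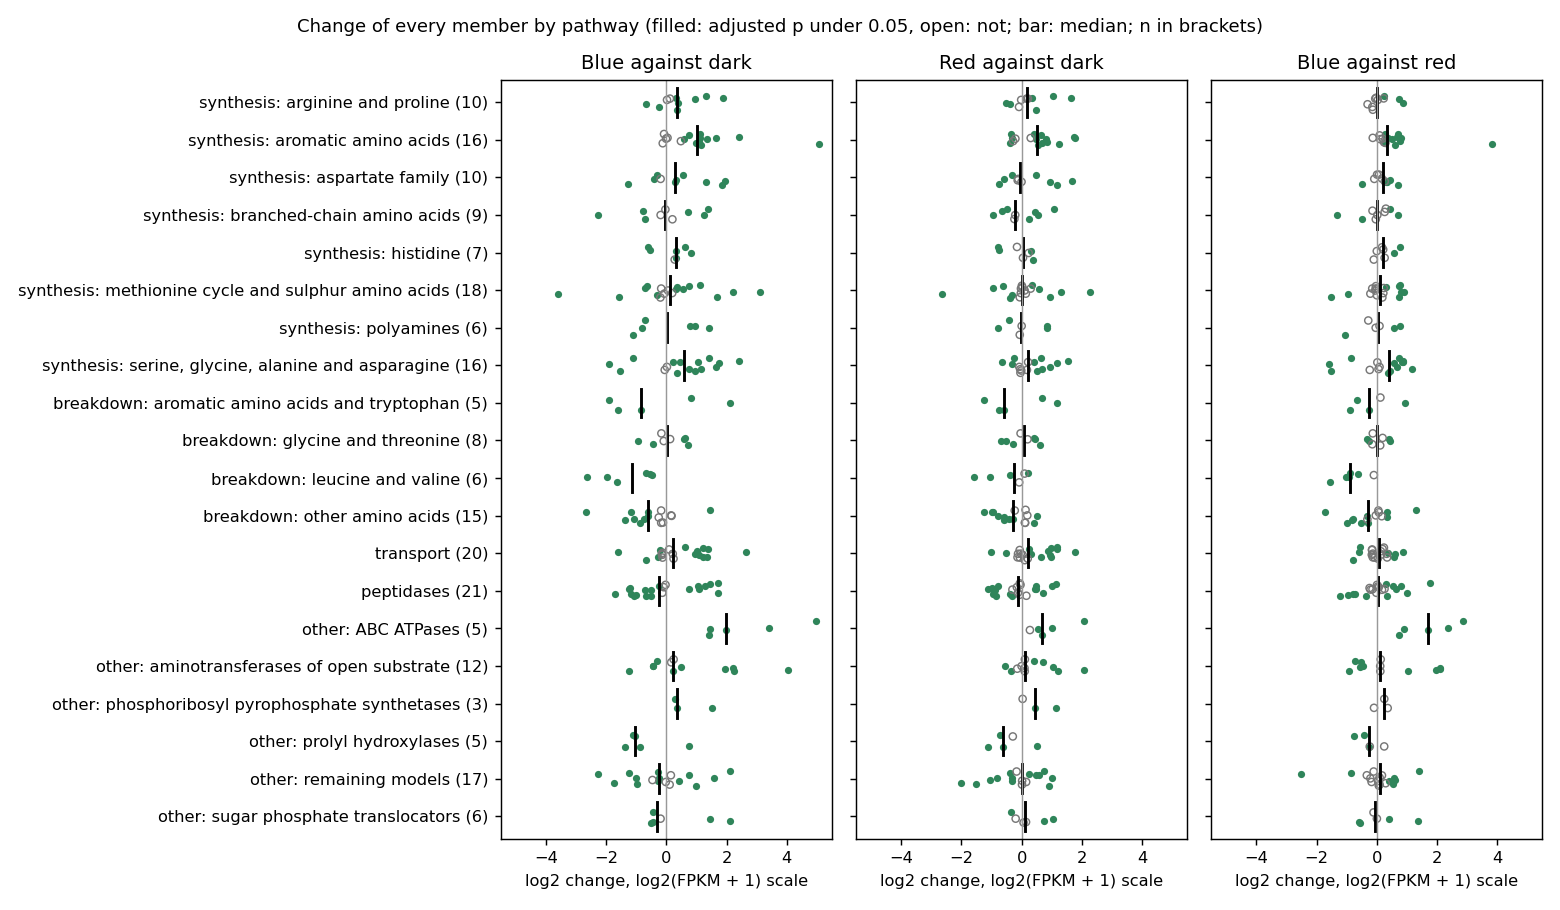
Log2 change of each of the 215 members on the log2(FPKM + 1) scale (horizontal axis) by role and pathway (rows, number of members in brackets), with 1 panel for each of the 3 comparisons; filled points passed the test, open ones did not, and bars are medians. Aromatic amino acid synthesis lies at a median of 1.02 and leucine and valine breakdown at −1.16 in blue against dark.

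Aromatic amino acid synthesis stood out in the sense of its counts: 11 of 16 members rose after blue light, 0 fell and 5 did not pass (median 1.02). With TPM 13 rose and 0 fell, after quantile normalization 11 and 0, and after median centring 10 and 3. The largest rise of any member was that of model 106091 (scaffold 16, 501325 to 504796), which the KOG name alone ties to the AROM protein, an enzyme that in fungi joins the middle steps of the shikimate pathway; its other descriptions name no function. It had 341 and 374 FPKM in blue, 22.4 and 26.8 FPKM in red and 9.56 and 10.0 FPKM in dark libraries. The groups do not overlap, and blue stood apart from both others (log2 change of blue against dark 5.05, SE 0.10, adjusted p = 2.29e-09 with SE the standard error; red against dark 1.24, adjusted p = 1.16e-05).

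The shikimate pathway can be followed step by step. DAHP synthase (584230), which starts the pathway and stands outside the KOG class, had 51.9 and 62.2 FPKM in blue, 52.6 and 56.6 in red and 27.1 and 28.6 in dark libraries, and rose after both pulses (log2 change 1.00 after blue and 0.95 after red). The next steps did not pass in the class: the member annotated as 3-dehydroquinate synthase (595365) changed by −0.12, adjusted p = 0.173, and the bifunctional dehydroquinate dehydratase (599717) by 0.04, adjusted p = 0.731. A dehydroquinate synthase model outside the class (522346) rose by 0.54. Shikimate kinase (600186) had 12.8 and 10.2 FPKM in blue, 7.11 and 8.34 FPKM in red and 4.18 and 3.69 FPKM in dark libraries and rose by 1.34 after blue light. The enolpyruvate transferase model (629019, overlapping), whose family makes the chorismate precursor EPSP, had 29.9 and 32.3 FPKM in blue, 18.0 and 20.7 FPKM in red and 5.07 and 5.06 FPKM in dark libraries. Chorismate synthase (577897), at the end of the common trunk, rose to 46.9 and 61.7 FPKM in blue libraries, against 22.5 and 27.7 FPKM in dark ones.

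The branches after chorismate held further rises. Toward phenylalanine and tyrosine, chorismate mutase (572036) changed by 1.10 after blue light and the trifunctional mutase and prephenate enzyme (536586) by 1.13. In blue libraries 572036 had 5.95 and 7.35 FPKM and 536586 had 6.59 and 7.90 FPKM. Toward tryptophan, anthranilate phosphoribosyltransferase (591574) rose by 1.13, and tryptophan synthase (602302) had 45.4 and 42.6 FPKM in blue, 46.9 and 49.9 FPKM in red and 12.5 and 14.3 FPKM in dark libraries. Blue and red libraries of tryptophan synthase lay close together (blue against red −0.13, adjusted p = 0.272), and it was among the largest red rises (1.78, SE 0.096, adjusted p = 1.15e-06). Indole-3-glycerol phosphate synthase (613578, overlapping) did not pass in blue (−0.08, adjusted p = 0.393) and was lower in red than in dark (−0.36).

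**Figure D3:**
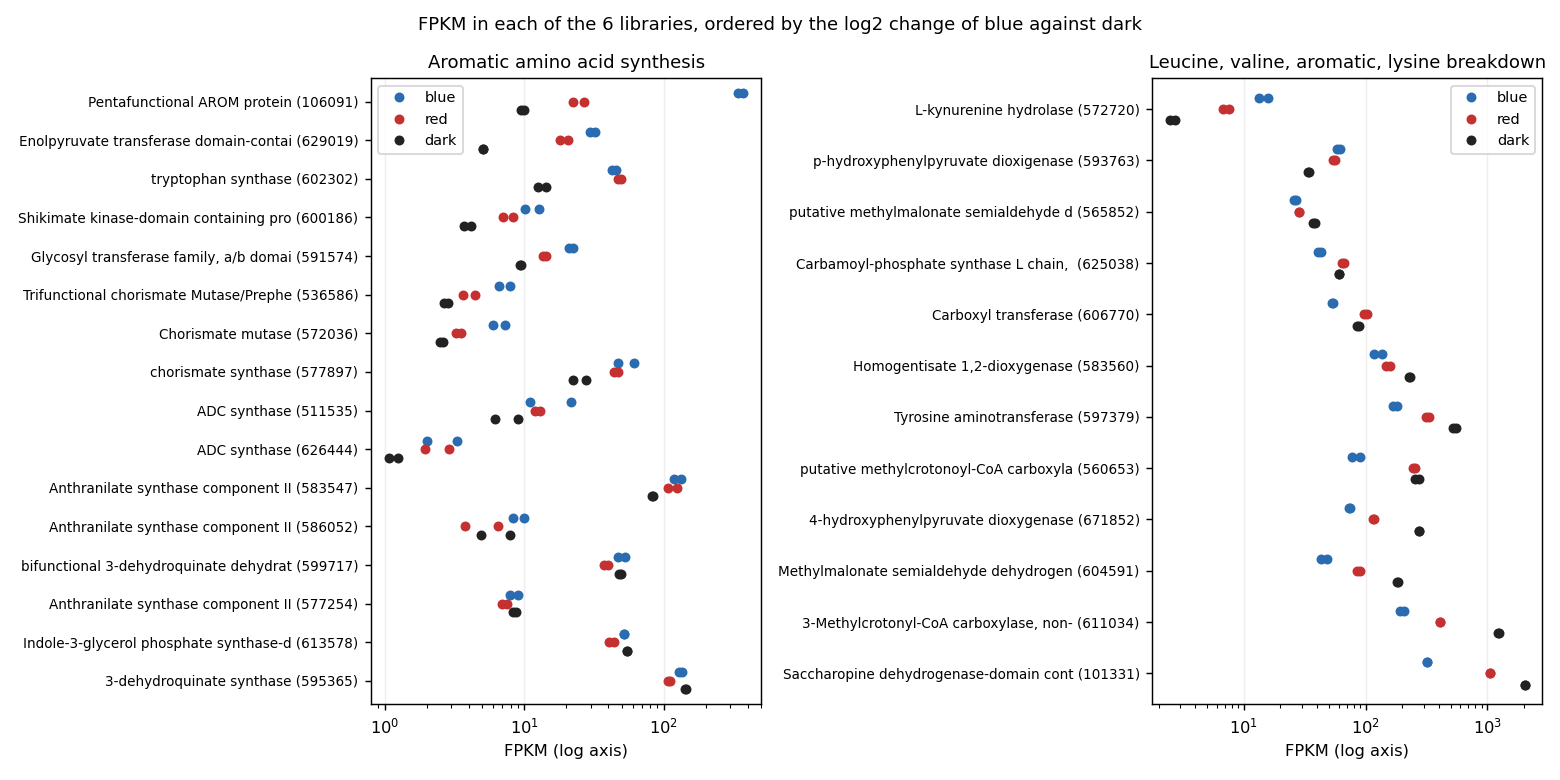
FPKM (log axis) of the 16 members of aromatic amino acid synthesis and of 12 breakdown members in each of the 6 libraries, with blue, red and dark libraries in that order from top to bottom of each row. Model 106091 reaches 341 and 374 FPKM in blue libraries, and the saccharopine dehydrogenase model 101331 falls to 322 and 319 FPKM there, against 2033 and 2025 FPKM in dark libraries.

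The pathway from 3-phosphoglycerate to serine and glycine, with alanine and asparagine, rose in 11 of 16 cases and fell in 3 after blue light (median 0.59), or 8 and 4 after median centring. A model described as phosphoserine aminotransferase with a phosphoglycerate dehydrogenase domain (573912; scaffold 2, 278763 to 282579) had 20.1 and 24.8 FPKM in blue, 9.36 and 14.5 FPKM in red and 3.24 and 3.57 FPKM in dark libraries (blue against dark 2.40, SE 0.18, adjusted p = 2.5e-06). Phosphoglycerate dehydrogenase, which opens the pathway, has other models that moved apart. Models 609305 and 675996 rose after blue light (1.75 and 1.40), while 551316, of the same superfamily of 2-hydroxyacid dehydrogenases, had 11.3 and 14.0 FPKM in blue, 39.0 and 40.4 FPKM in red and 50.7 and 48.9 FPKM in dark libraries and fell (−1.90, SE 0.11, adjusted p = 3.8e-07). The steps that follow, phosphoserine aminotransferase (624808, overlapping) and phosphoserine phosphatase (579764), rose by 1.14 and 0.44. Serine hydroxymethyltransferase, which turns serine into glycine, was the most abundant member of synthesis (576554), with 542 and 740.1 FPKM in blue, 429.6 and 515 FPKM in red and 326 and 329 FPKM in dark libraries. Of the asparagine synthases, 547211 rose by 0.74, whereas 589863 had only 0.455 and 0.267 FPKM in blue libraries, against 2.88 and 2.94 FPKM in red and 3.23 and 2.67 FPKM in dark ones, a level so low that its change of −1.54 is understated by the added pseudocount.

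In the aspartate family, 6 of 10 members rose and 3 fell after blue light (median 0.30), or 4 and 4 after median centring. The committing enzymes led. Aspartate kinase joined to homoserine dehydrogenase (582377) had 113 and 138 FPKM in blue, 68.5 and 86.2 FPKM in red and 34.1 and 33.4 FPKM in dark libraries. Aspartate kinase 584550 rose by 1.31 and homoserine dehydrogenase 599626, with 20.6 and 28.1 FPKM in blue, 18.8 and 21.0 FPKM in red and 5.38 and 5.59 FPKM in dark libraries, by 1.95, SE 0.14, adjusted p = 1.84e-06. Homoserine kinase (573065, overlapping), on the branch to threonine, went the other way with −0.43. Threonine synthase 586073, the most abundant of the family, had 299 and 337 FPKM in blue, 237 and 282 FPKM in red and 258 and 261 FPKM in dark libraries; its blue change of 0.29, adjusted p = 0.03 was lost after median centring, with no filter on low values, and without blue replicate 2, dark replicate 1 or dark replicate 2. On the lysine branch outside the class, dihydrodipicolinate synthase (586962) rose by 0.58, its reductase (627063) did not pass (0.10, adjusted p = 0.412), diaminopimelate epimerase (597898, overlapping) rose by 0.68 and diaminopimelate decarboxylase (560563) fell (−0.52).

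Methionine and sulphur amino acid models split, with 8 of 18 rising and 5 falling after blue light (median 0.12), or 10 and 4 on TPM, 7 and 7 after quantile normalization and 6 and 8 after median centring. The largest fall of any member was that of a cobalamin-independent methionine synthase (scaffold 113, 15361 to 18021), the enzyme that methylates homocysteine without vitamin B12. It had 15.9 and 17.4 FPKM in blue, 33.8 and 31.9 FPKM in red and 213 and 212 FPKM in dark libraries (blue against dark −3.60, SE 0.084, adjusted p = 3.26e-09; red against dark −2.66, SE 0.084, adjusted p = 1.32e-07). The pulsed libraries were all far below the dark ones, and blue was below red (−0.94, adjusted p = 2.12e-05). Of the other models of this activity, the second cobalamin-independent model (554589, overlapping) had 33.8 and 36.3 FPKM in blue and 39.0 and 40.3 FPKM in dark libraries (−0.17, adjusted p = 0.146), and the model described as methionine synthase with a homocysteine methyltransferase domain (591420) had 149.7 and 153 FPKM in blue, 114 and 129 FPKM in red and 121 and 118 FPKM in dark libraries and rose slightly after blue light (0.34, adjusted p = 0.00557).

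The steps around methionine synthase are given in their order. Of the methylenetetrahydrofolate reductases, which supply the methyl group, 599934 and 550795 rose by 1.67 and 1.13 and 580594 did not pass (0.19, adjusted p = 0.266). S-adenosylmethionine synthetase (359190), which uses methionine and stands outside the class, had 91.9 and 107 FPKM in blue, 86.9 and 90.9 FPKM in red and 13.0 and 13.7 FPKM in dark libraries, with no difference called between the pulses (0.16, adjusted p = 0.199). S-adenosylhomocysteine hydrolase (598165, overlapping), which returns homocysteine, rose by 1.99 after blue and 0.99 after red light. Phosphoadenosine phosphosulphate reductase (671473, overlapping by 13 bases only), which reduces activated sulphate, had 114 and 139 FPKM in blue, 64.5 and 78.4 FPKM in red and 13.4 and 14.5 FPKM in dark libraries, and was the largest red rise (2.28, SE 0.12, adjusted p = 1.25e-06). Serine acetyltransferase (580099), the entry to cysteine, rose to 18.8 and 25.9 FPKM in blue libraries, against 4.69 and 3.39 FPKM in dark ones. Cysteine and homocysteine are linked through cystathionine. Cystathionine beta-synthase (561202, overlapping), which makes it, had 155 and 148 FPKM in blue, 156 and 154 FPKM in red and 244 and 233 FPKM in dark libraries. Cystathionine gamma-lyase (579268) breaks cystathionine down but was not counted among the breakdown members. It had 39.8 and 42.6 FPKM in blue, 124 and 116 FPKM in red and 125 and 125 FPKM in dark libraries, so that the blue libraries stood below both other groups (−1.51, SE 0.081, adjusted p = 8.82e-07 for blue against red).

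Of 10 members of arginine and proline synthesis 6 rose and 2 fell (median 0.34), or 3 and 3 after median centring. Argininosuccinate synthase (583680), which joins citrulline and aspartate, had 122 and 118 FPKM in blue, 96.1 and 108 FPKM in red and 32.3 and 31.7 FPKM in dark libraries (1.87, SE 0.086, adjusted p = 1.19e-07), whereas argininosuccinate lyase (553202, overlapping), which acts next, changed by −0.23, adjusted p = 0.036. Gamma-glutamyl phosphate reductase (571676, overlapping), an early step to proline and the most abundant of the list, did not pass (0.02, adjusted p = 0.845) and its sign turned with the scale. Of 7 members of histidine synthesis 4 rose and 2 fell, or 1 and 2 after median centring. Its members include the imidazole glycerol phosphate synthase model 539281 at 72.4 and 86.2 FPKM in blue, 51.5 and 53.8 FPKM in red and 42.3 and 47.0 FPKM in dark libraries and histidinol phosphate aminotransferase (541607) at 168 and 198 FPKM in blue, 151 and 173 FPKM in red and 278 and 285 FPKM in dark libraries. Of 6 polyamine members 3 rose and 3 fell. The most abundant, a methyltransferase-type model that its KOG entry describes as a predicted spermine and spermidine synthase (590146), had 45.2 and 51.3 FPKM in blue, 106 and 94.8 FPKM in red and 106 and 103 FPKM in dark libraries (−1.10, SE 0.094, adjusted p = 5.14e-06). Ornithine decarboxylase (583631), the first enzyme of the pathway, had 8.47 and 9.91 FPKM in blue, 5.21 and 6.60 FPKM in red and 2.73 and 2.92 FPKM in dark libraries. S-adenosylmethionine decarboxylase (546003), which supplies the propyl groups and stands outside the class, had 188 and 222 FPKM in blue, 91.8 and 102 FPKM in red and 17.5 and 17.6 FPKM in dark libraries (3.46 after blue and 2.39 after red light).

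Branched-chain amino acid models met both roles. Of the 9 synthesis members 3 rose and 3 fell after blue light, or 5 and 3 on TPM and 3 and 5 after median centring. Ketol-acid reductoisomerase (588063), outside the class, had 300.4 and 339 FPKM in blue, 236 and 265 FPKM in red and 42.3 and 45.7 FPKM in dark libraries, and dihydroxy-acid dehydratase (534288), the next enzyme, 110.1 and 121 FPKM in blue, 79.5 and 109.6 FPKM in red and 43.3 and 44.5 FPKM in dark libraries. On the leucine branch, 3-isopropylmalate dehydrogenase (626203) rose by 0.71 after blue light while 2-isopropylmalate synthase (579683) fell (−0.78), and the most abundant model, 3-isopropylmalate dehydratase (591957), did not pass (−0.03, adjusted p = 0.778). The branched-chain aminotransferases, which serve both the last step of synthesis and the first of breakdown, parted: 551337 had 104 and 110.1 FPKM in blue, 281 and 262 FPKM in red and 528 and 524 FPKM in dark libraries (−2.29, SE 0.082, adjusted p = 2.89e-08), 674138 fell (−0.72), and 609149 rose to 67.5 and 78.7 FPKM in blue libraries, against 30.2 and 29.4 FPKM in dark ones.

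The list of leucine and valine breakdown fell throughout after blue light, with 6 of 6 members lower and 0 higher (median −1.16), and did so under each of the other scalings too. Methylcrotonyl-CoA carboxylase acts in leucine breakdown. The KOG names of the 4 carboxylase models in the list also name acetyl-CoA carboxylase, which acts in fatty acid synthesis. Of the 4, only 560653 has a product name that gives methylcrotonyl-CoA as substrate. The most abundant, a carboxyl transferase model (611034, scaffold 53, 99674 to 105679), had 193 and 207 FPKM in blue, 412 and 410.4 FPKM in red and 1259 and 1216 FPKM in dark libraries (−2.63, SE 0.084, adjusted p = 1.63e-08). Model 560653 had 90.7 and 77.7 FPKM in blue, 243 and 256 FPKM in red and 275 and 253 FPKM in dark libraries. Here red against dark did not pass (−0.08, adjusted p = 0.491) and the blue libraries lay below both other groups (−1.56, SE 0.097, adjusted p = 2.12e-06 for blue against red). Methylmalonate semialdehyde dehydrogenase (604591, overlapping), of valine breakdown, had 42.9 and 48.6 FPKM in blue, 85.6 and 90.1 FPKM in red and 181 and 184 FPKM in dark libraries.

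The steps of this route outside the class were also lower after blue light. The dehydrogenase of branched-chain keto acids had its E1 model 623081 at 51.1 and 50.8 FPKM in blue, 79.1 and 85.7 FPKM in red and 130.2 and 125 FPKM in dark libraries and its beta subunit 117466 at 71.6 and 81.4 FPKM in blue, 104 and 125 FPKM in red and 126 and 134 FPKM in dark libraries. A kinase whose description names both branched-chain keto acid dehydrogenase and pyruvate dehydrogenase kinase (612171) fell as well (−1.12). Hydroxymethylglutaryl-CoA lyase (579045), the last leucine step, changed by −0.92, 3-hydroxyisobutyrate dehydrogenase (624176) by −0.77 and methylmalonyl-CoA mutase (622825) by −1.54, all of them called. These outside models were chosen by the names of the steps after the class had been examined.

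Lysine and tyrosine breakdown followed. The most abundant breakdown member was a lysine-ketoglutarate reductase and saccharopine dehydrogenase model (101331; scaffold 16, 198435 to 202750), which opens lysine breakdown in plants and animals. It had 322 and 319 FPKM in blue, 1051 and 1064 FPKM in red and 2033 and 2025 FPKM in dark libraries (−2.66, SE 0.085, adjusted p = 1.65e-08; blue against red −1.72, SE 0.085, adjusted p = 5.69e-07). Tyrosine aminotransferase (597379) had 168 and 182 FPKM in blue, 312 and 332 FPKM in red and 555 and 523 FPKM in dark libraries. The next step is 4-hydroxyphenylpyruvate dioxygenase. Model 671852 has this KOG name, but it is long (scaffold 15, 82680 to 92371) and its domain description is ABC transporter-like. It had 73.0 and 74.5 FPKM in blue, 115 and 117 FPKM in red and 277 and 276 FPKM in dark libraries. Homogentisate dioxygenase (583560, overlapping) changed by −0.85 after blue light. Fumarylacetoacetase (421144, outside the class), the end of the route, had 115 and 119 FPKM in blue, 181 and 203 FPKM in red and 332 and 332 FPKM in dark libraries. The model with the dioxygenase as its product name (593763) rose after blue light, unlike 671852. It had 58.0 and 61.8 FPKM in blue, 54.4 and 55.7 FPKM in red and 34.5 and 33.5 FPKM in dark libraries. In plants this enzyme also makes homogentisate for tocopherols and plastoquinone. Kynurenine hydrolase (572720), of tryptophan breakdown, rose to 13.4 and 15.8 FPKM in blue libraries, against 2.48 and 2.72 FPKM in dark ones.

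The other breakdown models changed less evenly. Both models of the glutamate dehydrogenase family, whose enzymes can release ammonium from glutamate, fell after blue light, with 576853 at −1.08 and 593231 at −0.87. The product name of 593231 calls it NADP-dependent. The descriptions do not say in which direction either enzyme works, so their place in breakdown is uncertain. Cysteine desulfurase (527986), which hands sulphur from cysteine to iron-sulphur clusters, had 457 and 478 FPKM in blue, 420.3 and 475 FPKM in red and 1083 and 1052 FPKM in dark libraries, with blue and red both below dark and no difference called between them (0.07, adjusted p = 0.591). Glycine and threonine breakdown rose in 3 of 8 cases and fell in 2 (median 0.02), or 4 and 1 on TPM and 3 and 4 after median centring. The aminomethyltransferase of the glycine cleavage system (582793, overlapping) had 134 and 131 FPKM in blue, 151 and 165 FPKM in red and 261 and 246 FPKM in dark libraries, its H protein (583132) did not pass (−0.17, adjusted p = 0.0898), and glycine dehydrogenase (579665, overlapping) did not either (0.12, adjusted p = 0.184). Threonine aldolase 602431, the most abundant of the list, had 376 and 374 FPKM in blue, 266 and 288 FPKM in red and 406 and 392 FPKM in dark libraries and lay lowest in red (−0.53, adjusted p = 0.000479 for red against dark, a call lost after quantile normalization).

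Among transporters, the urea symporter (532265; scaffold 23, 398028 to 400190), which takes up urea with sodium, had 35.9 and 35.2 FPKM in blue, 17.8 and 20.4 FPKM in red and 4.67 and 4.96 FPKM in dark libraries (2.65, SE 0.10, adjusted p = 4.2e-08; red against dark 1.79, SE 0.10, adjusted p = 1.46e-06). The most abundant transporter, a transmembrane amino acid transporter (602330, overlapping), had 80.3 and 92.0 FPKM in blue, 94.0 and 97.6 FPKM in red and 78.6 and 82.9 FPKM in dark libraries and did not pass in blue (0.09, adjusted p = 0.385). The 20 transporters spanned log2 changes between −1.60 and 2.65 in blue against dark. On TPM 12 rose and 2 fell after blue light, after quantile normalization 9 and 7, and after median centring 9 and 8.

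Peptidases, which release amino acids from peptides, did not lean one way on all scales: the counts of 7 rising and 11 falling became 9 and 9 on TPM, 7 and 11 after quantile normalization and 7 and 14 after median centring. A serine carboxypeptidase (585999) had 70.8 and 92.2 FPKM in blue, 22.9 and 23.3 FPKM in red and 25.0 and 23.3 FPKM in dark libraries, so that blue stood above both other groups (1.76, SE 0.12, adjusted p = 4.27e-06 for blue against red). The most abundant peptidase, a puromycin-sensitive type aminopeptidase (559055, overlapping), had 159.6 and 174 FPKM in blue, 124 and 137 FPKM in red and 236 and 236 FPKM in dark libraries.

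Several of the largest changes belonged to members whose descriptions name no amino acid pathway. All 5 ABC-type ATPases rose after blue light, with a median of 1.97, and so they did on TPM, after median centring and after quantile normalization. Their KOG name, which joins duplicated ATPase domains with the translation factor EF-3, names no amino acid as substrate. Model 544905 (scaffold 18, 382684 to 387033, overlapping by 20 bases) had 3568 and 3612 FPKM in blue, 449 and 531 FPKM in red and 118 and 111 FPKM in dark libraries (4.96, SE 0.10, adjusted p = 2.29e-09) and alone held 0.571% and 0.545% of the summed FPKM in blue, against 0.0154% and 0.0144% in dark libraries. Without it, the members' share of the total was 2.35% and 2.42% in blue, 2.56% and 2.64% in red, and 2.60% and 2.59% in dark libraries, where with it the order of blue and dark was the reverse, at 2.92% and 2.97% in blue and 2.61% and 2.60% in dark libraries. Model 592294 of the same kind had 26.3 and 34.6 FPKM in blue, 4.64 and 5.48 FPKM in red and 1.93 and 2.02 FPKM in dark libraries.

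Of the 12 aminotransferases of open substrate 6 rose and 4 fell after blue light, or 8 and 3 on TPM and 4 and 4 after median centring. Model 605110 (scaffold 31, 50144 to 53725) had 141 and 175 FPKM in blue, 37.0 and 41.8 FPKM in red and 8.44 and 8.81 FPKM in dark libraries (4.04, SE 0.12, adjusted p = 9.72e-09). Models 353253 and 673172 were high in blue libraries and did not pass in red against dark, 353253 with 27.1 and 32.9 FPKM in blue, 5.61 and 6.69 FPKM in red and 5.71 and 5.63 FPKM in dark libraries and 673172 with 12.9 and 17.6, 3.32 and 2.29 and 2.84 and 3.51 FPKM for the blue, red and dark libraries. Model 595596, the most abundant, fell in blue (−0.43, adjusted p = 0.000947), a call lost after quantile normalization. Prolyl hydroxylases, which modify proline within proteins, fell in 4 of 5 cases. All 3 phosphoribosyl pyrophosphate synthetases, whose product enters histidine, tryptophan and nucleotide synthesis, rose (1 after median centring), with 595730 at 26.5 and 36.0 FPKM in blue, 20.6 and 27.5 FPKM in red and 9.83 and 10.5 FPKM in dark libraries. A methyltransferase of the guanidinoacetate type (591027) had 24.5 and 24.9 FPKM in blue libraries, against 145 and 149.6 FPKM in red and 125 and 124 FPKM in dark ones. The sugar phosphate translocator 574094 (overlapping) rose to 45.9 and 52.0 FPKM in blue libraries, against 10.2 and 10.9 FPKM in dark ones, and 2 of 6 translocators rose and 3 fell (2 and 1 on TPM). Their most abundant model, the triose phosphate translocator 614748, had 385 and 433 FPKM in blue, 385 and 504 FPKM in red and 546 and 573 FPKM in dark libraries, and its falls were lost on TPM and after quantile normalization (with the sign turned after red light), without the filter on low values, after blue light without blue replicate 1 or dark replicate 2, and after red light without red replicate 1 or either dark replicate. The remaining models named for abundance were the prolyl hydroxylase 631006 (−1.36 after blue light), the synthetase 6596 (0.36, a call lost after median centring and without dark replicate 1) and a model with a peptidase M24 domain whose KOG entry is a global transcriptional regulator (667855, −0.27, a call lost on TPM, after quantile normalization and without dark replicate 1).

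The red pulse was compared with the same dark libraries. Of the 215 members 82 rose and 63 fell, where 33.7% of all tested models rose and 29.5% fell. In synthesis 38 of 92 members rose and 23 fell (median 0.12), breakdown rose in 8 of 34 and fell in 17 (median −0.26), and transporters rose in 10 of 20 and fell in 2 (median 0.22). The counts moved with the scale, and so did the background. On TPM 130 members rose and 39 fell, 58 and 11 of synthesis and 16 and 13 of breakdown. With quantile normalization the counts were 79 and 59 for all members, 36 and 24 for synthesis and 10 and 14 for breakdown. After median centring they were 67 and 78, 29 and 29, and 7 and 18. Of all tested models 54.6% rose and 16.1% fell on TPM, 30.3% and 30.4% after quantile normalization and 24.8% and 38.5% after median centring. Breakdown had 47.1% and 38.2%, 29.4% and 41.2%, and 20.6% and 52.9% on these scales. It lay above the share that fell on each of the 3. Its share that rose was lower on TPM and after median centring, but near that of all tested models after quantile normalization (29.4% against 30.3%). Changes of at least 2-fold were called for 26 rises and 11 falls after red light (12.1% and 5.12% of members, where 6.22% and 5.92% of all tested models did so). After blue light they were 54 rises and 32 falls (25.1% and 14.9%, where 15.8% and 12.6% of all tested models did so).

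The largest red rises were the phosphosulphate reductase, ABC-type ATPase 544905, aminotransferase 605110, the urea symporter, tryptophan synthase and the enolpyruvate transferase, with log2 changes of 2.28, 2.08, 2.07, 1.79, 1.78 and 1.74. The largest red falls were methionine synthase, a lyase of the sphingosine phosphate type (595516, overlapping) with 11.8 and 8.30 FPKM in red and 44.5 and 42.1 FPKM in dark libraries, the carboxylase 611034 (−1.59), a carbon-nitrogen hydrolase (584840, overlapping) with 30.1 and 29.7 FPKM in red and 85.7 and 88.4 FPKM in dark libraries, cysteine desulfurase 527986 (−1.25) and the dioxygenase 671852 (−1.24). The lyase lies wholly within another model on the same strand, so its value may hold reads of its host. After red light 10 of 16 members of aromatic synthesis rose and 3 fell (median 0.50), or 11 and 0 on TPM and 7 and 4 after median centring. Breakdown of leucine and valine rose in 1 of 6 cases and fell in 3, but on TPM 3 rose and 2 fell.

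In the authors' deposited table, 80 members were higher and 56 lower after blue light at q under 0.05, which is 63.3% of the members, against 59.3% of all tested models. The same table called 68 members higher and 41 lower after red light (50.7% of the members, against 45.8% of all tested models). All 136 and all 109 of these members were also called here in the same direction. The deposited log2 changes equalled the log2 ratio of mean FPKM of these same libraries (100% of models compared, within 0.01). The shared direction was therefore given in advance and is no independent support.

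The direct comparison of the pulses tested the difference itself. Blue exceeded red in 71 of 215 members and was below it in 46, where 27.0% of all tested models were higher and 23.7% lower in blue. In synthesis 38 of 92 members were higher and 9 lower in blue than in red (median 0.22), and in breakdown 6 of 34 were higher and 17 lower (median −0.26). On TPM these counts were 32 and 14 for synthesis and 4 and 20 for breakdown, after quantile normalization 33 and 12, and 5 and 20, and after median centring 30 and 12, and 3 and 20, so each role kept its direction on all 4 scales. Over all members the balance did not hold, with 62 higher and 63 lower on TPM, 63 and 61 after quantile normalization and 58 and 62 after median centring. The background moved too. Of all tested models 21.7% were higher and 29.2% lower on TPM, 22.9% and 28.35% after quantile normalization and 20.9% and 30.2% after median centring. The members' shares were 28.8% and 29.3%, 29.3% and 28.4%, and 27.0% and 28.8%. They lay above the background for higher members and near it for lower ones. Aromatic synthesis was higher in blue in 10 of 16 cases and lower in 0, and leucine and valine breakdown was higher in 0 of 6 and lower in 5. Transporters were higher in 4 of 20 cases and lower in 3, and 13 did not pass. On TPM 4 were higher and 7 lower (20% and 35%, against 21.7% and 29.2% of all tested models).

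**Figure D4:**
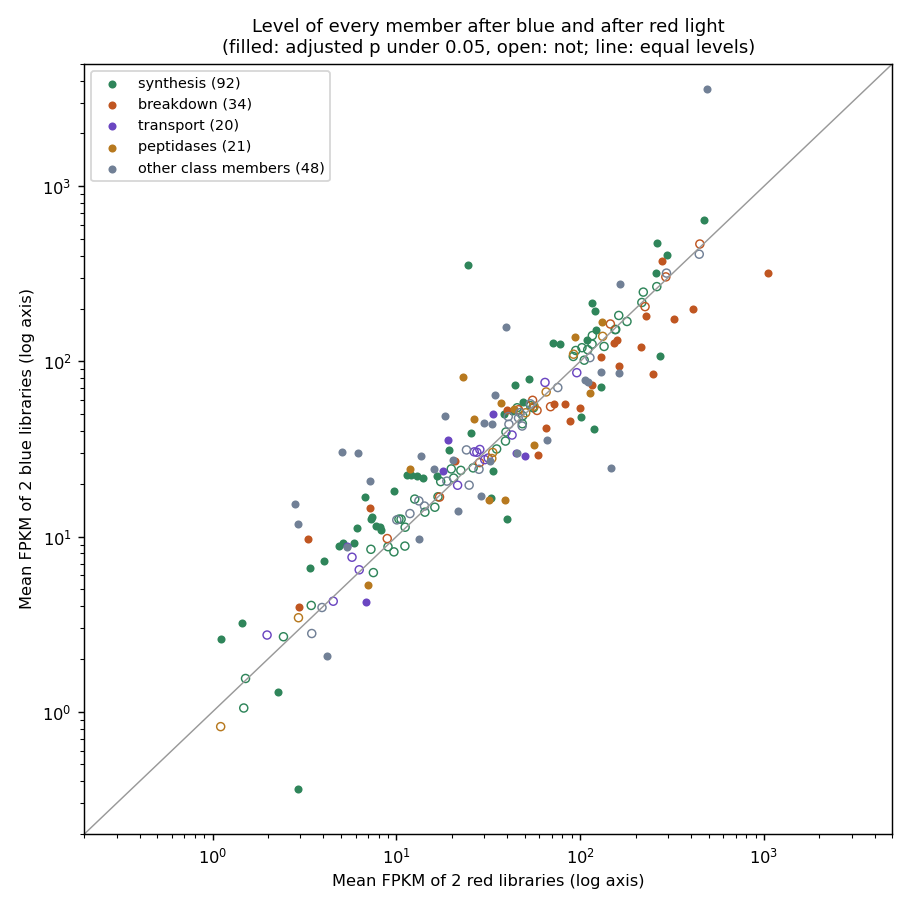
Mean FPKM of each of the 215 members in the 2 blue libraries (vertical, log axis) against the 2 red libraries (horizontal, log axis), coloured by role; filled points passed the test of blue against red. The 17 called breakdown members below the line of equal levels include the saccharopine dehydrogenase model at 321 FPKM in blue and 1057 FPKM in red libraries, and the point far above it at 357 FPKM in blue is model 106091.

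The members highest in blue relative to red were 106091 (3.81, SE 0.10, adjusted p = 1.81e-08), the ABC-type ATPases 544905 (2.88) and 592294 (2.37), and the aminotransferases 353253, 673172 and 605110 (2.11, 2.09 and 1.97). The lowest were the methyltransferase 591027 (−2.53, SE 0.076, adjusted p = 2.82e-08), saccharopine dehydrogenase 101331, the 2-hydroxyacid dehydrogenase 551316 (−1.58), the carboxylase 560653, asparagine synthase 589863 (−1.53) and cystathionine gamma-lyase 579268.

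Word patterns for the same pathways were also applied to tested models outside the class. They found 35 synthesis models, of which 22 rose and 9 fell after blue light (median 0.48) and 16 rose and 8 fell after red light; on TPM these were 26 and 8 after blue and 24 and 4 after red light. Of 33 breakdown models 10 rose and 16 fell after blue light (median −0.31), and 9 rose and 14 fell after red light. On TPM 13 breakdown models rose and 14 fell after blue light (39.4% and 42.4%, against 49.8% and 27.0% of all tested models), and 14 rose and 8 fell after red light (42.4% and 24.2%, against 54.6% and 16.1%). In blue against red, 15 of the 35 outside synthesis models were higher and 4 lower (median 0.16). Of the 33 outside breakdown models 11 were higher and 10 lower (median −0.07). These are 33.3% and 30.3%, against 27.0% and 23.7% of all tested models. The outside breakdown models thus did not share the lean of the breakdown members, of which 6 of 34 were higher and 17 lower. These word lists are loose and also hold enzymes of other pathways, such as desaturases with an amine oxidase domain.

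Of the members, 6 pairs lie next to each other on a scaffold. The Xaa-Pro aminopeptidases 532574 and 203924 on scaffold 25, which cut a residue before proline and lie 653 bases apart in the same direction, had log2 changes of −1.07 and −1.01 after blue light and did not pass after red light (0.16 and −0.07). The acetylornithine aminotransferase-like models 554462 and 586955 on scaffold 9 changed by 0.48 after blue light for the first, with the second not called (0.16, adjusted p = 0.38), and by 1.04 and 0.69 after red light. An amino acid transporter (529671) and an aminotransferase (593641) stand head to head on scaffold 14, 801 bases apart, and rose by 0.94 and 2.24 after blue light. The serine carboxypeptidases 573438 and 667640 (overlapping another model) both fell (−1.21 and −0.68). In the pairs of alanine aminotransferase 599737 with transporter 626103 and of model 634393 with dihydroxy-acid dehydratase 534288, the second and the first partner did not pass (0.21, adjusted p = 0.186 and −0.46, adjusted p = 0.0534).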

How the data were processed

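Polyadenylated RNA of 6 libraries, in 3 groups of 2 as the labels give them, was sequenced with a stranded kit. The submitters' processing notes list TopHat, Cufflinks, Cuffnorm, Cuffdiff and FastQC, with neither version nor role; settings are not stated there. FPKM values were deposited for each model and library, per the file headers, with TPM values beside them, and gene models and scaffold coordinates are those of the table's Nanoce1779_2 annotation. The authors also deposited their own log2 fold changes for the pulses, with p-values and q-values, per the file headers; the log2 columns were used only to check directions. The files hold no counts, so no count test was run and the number of fragments per library is unknown.

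Members were taken by their KOG class, averaging 1 FPKM or more across the 6 libraries, and placed in roles by their descriptions. The members and lists were chosen with earlier results of these data known. All 9087 models at or above that mean were fitted together on log2(FPKM + 1) with limma 3.58.1 in R 4.3.3 (3 groups, 6 libraries, variance trend, 3 residual degrees of freedom, two-sided, Benjamini-Hochberg adjusted p under 0.05 over all of them). Fold changes on this scale understate the change of low models. A test on simulated data (blue against dark, 9087 models) changed 100 models at each of 2 sizes. It found 94% of the changes set at 0.75 log2 and 100% of those set at 2 log2, and 20 of its 214 calls were false. In the data far more models were called (39.9% higher and 36.2% lower in blue against dark), so these rates do not carry over to the real comparison.

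Named members are the 8 largest rises and falls in blue against dark and the 6 largest in each of the other comparisons, among called members whose libraries do not overlap. To these come the most abundant and the most changed member of each list, methionine synthase, and the steps of pathway chains in order. Outside steps, neighbouring pairs and members with opposite calls were added after values had been seen. Alternatives were TPM, quantile normalization, median centring, pseudocounts of 0.1 and 5, no filter on low values, no variance trend, only the groups compared, a replicate block, and each library left out; leaving out overlapping members was added after seeing the data.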

Additional observations from a re-analysis of the deposited data

Results flagged for a closer look

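For 5 members the calls after the pulses had opposite signs against the shared dark libraries, and the direct test of blue against red passed for each. The methyltransferase 591027 stood at −2.53 in blue against red (adjusted p = 2.82e-08): it changed by −2.29 after blue and 0.24 after red light. The carboxyl transferase 606770, whose KOG name joins methylcrotonyl-CoA and acetyl-CoA carboxylase, had 53.5 and 54.5 FPKM in blue, 97.8 and 103 FPKM in red and 85.1 and 89.0 FPKM in dark libraries, with a blue against red difference of −0.88. Aminotransferase 622226 (overlapping) differed by −0.72 between blue and red, with −0.30 after blue and 0.42 after red light. Pyrroline-5-carboxylate reductase 573749, the last step to proline, had 195 and 236 FPKM in blue, 110.3 and 123 FPKM in red and 166 and 164 FPKM in dark libraries, a blue against red difference of 0.88. Alanine transaminase 581306 had 475 and 469.9 FPKM in blue, 258 and 263 FPKM in red and 409.8 and 403 FPKM in dark libraries, a difference of 0.86. The differences between the pulses kept their sign and call under all 3 other scalings for all 5 members. The smaller changes against dark did not: after median centring 573749 and 581306 were no longer called after blue light (581306 with its sign turned), nor 591027, 606770 and 622226 after red light, and on TPM 573749 was not called after red light, nor 622226 after blue light. After quantile normalization 622226 was not called after red light. With 1 library left out, calls against dark were lost for 4 of these members: 581306 after blue light without dark replicate 1 or 2, 591027 after red light without red replicate 2 or either dark replicate, 606770 after red light whichever of the 4 libraries compared was left out, and 622226 after blue light whichever of the 4 was left out and after red light without red replicate 2 or dark replicate 2.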

How the results depend on the processing

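On TPM, 130 members were higher and 39 lower in red against dark, a move of over 1.5 times for both counts; every other count of members in the 3 comparisons stayed within 1.5 times under the other alternatives run. With 1 library left out at a time, the count of higher members ranged between 84 and 98 in blue against dark, 67 and 84 in red against dark and 54 and 79 in blue against red, and that of lower members between 63 and 74, 47 and 65, and 40 and 51 in the same order. The replicate numbers could not be shown to pair the libraries: deviations of same-numbered libraries correlated at 0.091 for blue and dark, −0.082 for red and dark and 0.340 for blue and red. These are the labels' replicate numbers; the library codes in the same labels give red replicate 1 another number (2) than blue and dark replicate 1 (both 1), so by the codes it is not their counterpart. With a replicate block 97 members were higher and 75 lower in blue against dark, 84 and 64 in red against dark, and 77 and 48 in blue against red.

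Over 162 results of named members, signs turned for 9 on TPM, 5 after quantile normalization and 2 after median centring. These counts hold only results called on FPKM or on the scale set against it. Turns of sign where neither value was called were not counted. The cause was not tested. In red against dark, TPM gave 0.0237 for 551316, 0.27 for 560653, 0.33 for 571676, 0.29 for 579268, 0.28 for 585999, 0.35 for 586073, 0.29 for 590146 and 0.0054 for 614748, and quantile normalization gave 0.31 for 571676, 0.31 for 586073 and 0.22 for 614748. In blue against dark, TPM gave 0.22 and quantile normalization 0.27 for 591957, quantile normalization gave 0.21 for 602431, and median centring gave −0.25 for 571676 and −0.0485 for 581306. Of these 162 results, 13 lost their call without dark replicate 1 and 13 without dark replicate 2. Synthesis members rose in 56.5% of cases after blue light and in 64.1% without overlapping models, and breakdown members fell in 55.9% and 57.1%. Without counts, no limit that depth sets on low models could be given.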
